A study of Mus musculus with 21 samples.

Results

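Potassium channels carry potassium ions out of or into cells and so set the resting voltage of the membrane and end electrical signals. Voltage-gated pore subunits (Kcna, Kcnb, Kcnc, Kcnd, Kcnh and Kcnq) open when the membrane depolarizes, and silent modifier subunits (Kcnf, Kcng, Kcns and Kcnv) make no channel of their own but join voltage-gated subunits. Inward rectifiers (Kcnj), 2-pore-domain leak channels (Kcnk) and a group called calcium- or sodium-activated channels here (Kcnma, Kcnn, Kcnt and Kcnu) make up the other pore families. Auxiliary subunits (Kcnab, Kcne, Kcnip, Kcnmb) change the gating or the surface level of the pores. Families were assigned by gene name, and a member need not have the property its family is named for. The regions described here were the rows of an H3K4me1 table whose nearest gene had a name beginning with Kcn and whose distance to that gene's start site was at most 100000 bp. They numbered 849 of 186826 regions, lay nearest 98 genes, and were chosen by name and distance and not by their signal. Of all regions in the table, 156790 met the same limit on distance for some gene, and these are the background below. A total of 84 of the 98 genes had 3 or more regions, and the median was 7 regions per gene. The farthest region inside the limit lay 97900 bp from Kcns2 and differed by -0.07 on the log2 scale between formative and naive wild-type cells, and the nearest outside lay 102913 bp from Kcnn2 and differed by -0.58.

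H3K4me1, the monomethyl mark on lysine 4 of histone H3, is placed mostly at enhancers by the methyltransferases MLL3 and MLL4. The mark was mapped by CUT&RUN, in which an antibody brings a nuclease to the mark and the released fragments are sequenced, in mouse embryonic stem cells of 4 genotypes in 2 states. Formative cells were collected 63 hours after LIF2i, the medium that holds cells in the naive state, was withdrawn, and naive cells were kept in it. The genotypes were MLL3KO_MLL4KO (called DKO here), MLL3KO_MLL4fl (the floxed line, which by its label already lacks MLL3 and carries MLL4 with flanking recombination sites), MLL3CD_MLL4CD (called dCD; CD is taken to mean catalytically dead) and WT. Each genotype was 1 cell line, wild type and dCD were labelled as the R1 line, and the DKO was compared with the floxed line that shares its MLL3 knockout. Each of the 8 groups had 2 libraries from separate cultures but 1 pooled value per region, so a difference between groups has no spread between replicates here. The only test was the false discovery rate (FDR) that the authors' deposited table gives for formative against naive wild-type cells. Values below are normalized reads recovered from the deposited log2 levels, and differences are of those log2 levels within a region. The antibody's catalogue number differs between 2 fields of the labels, and the mark is named as labelled.

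Summed over the table, each group held 10.3 to 12.5 M normalized reads, and the median over the 849 regions was 29.6 to 39.3 reads per region. The state labels were checked against marker genes with 3 or more regions. In wild type, 6 of 9 naive markers had a mean H3K4me1 at least 1.5-fold lower in formative than in naive cells and 0 were higher, and 4 of 7 formative markers were at least 1.5-fold higher and 0 lower. Markers of other cells differed too: 3 of 5 neural genes and 3 of 4 fibroblast genes were at least 1.5-fold higher, with none lower. Summed reads over the neural list were 7605 in formative and 5780 in naive wild-type cells, and over the fibroblast list 2292 in formative and 1444 in naive wild-type cells, with no marker region at 0 in any group. The part of such cells in the results below was not tested, and in bulk samples fewer marked cells and less mark per cell cannot be told apart. In DKO none of these marker genes reached 1.5-fold between the states, and in dCD 1 of 9 naive markers was lower and 2 of 7 formative markers higher, so there the mark itself gives little check of the state labels.

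Of the 849 regions, 453 lay in introns and 293 between genes, 37 in exons, 38 were annotated as promoters, 10 lay at transcript ends, 10 in 3′ UTRs and 8 in 5′ UTRs. A total of 74 lay within 1 kb of the start site. Voltage-gated genes had 216 regions, auxiliary genes 150, inward rectifiers 129, leak channels 119, silent modifiers 118 and calcium- or sodium-activated channels 79. The other 38 belonged to 4 non-coding names: Kcnq1ot1, the imprinted antisense transcript of the Kcnq1 locus, and Kcnmb4os1, Kcnmb4os2 and Kcnd3os. The genes with the most regions in their families were Kcnq3 (20 regions), Kcnip1 (25), Kcnj6 (34), Kcnk12 (31), Kcng1 (22), Kcnn3 (30) and Kcnmb4os1 (17). The nearest gene is a matter of distance and says nothing of which gene a region acts on.

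Sequences of 5 places picked by their values are shown, each 300 bases with CpG dinucleotides in capitals. The first 3 are the central 300 bases, plus strand of mm10, of 3 regions: the region upstream of Kcna3 with the highest wild-type gain (chr3:106964600-106964899), the region upstream of Kcnf1 that was low in formative wild type and in both mutants (chr12:17195577-17195876), and the exon region of Kcnv2 that was highest in formative DKO relative to floxed cells (chr19:27323256-27323555). The last 2 are RefSeq promoter windows on GRCm38.p6, the same assembly as mm10, which lay inside a region: those with the lowest and the highest mean of the 4 mutant differences, both on the plus strand (Kcnj16, chr11:111023610-111023909, and Kcnab1, chr3:64948962-64949261).
Kcna3 upstream: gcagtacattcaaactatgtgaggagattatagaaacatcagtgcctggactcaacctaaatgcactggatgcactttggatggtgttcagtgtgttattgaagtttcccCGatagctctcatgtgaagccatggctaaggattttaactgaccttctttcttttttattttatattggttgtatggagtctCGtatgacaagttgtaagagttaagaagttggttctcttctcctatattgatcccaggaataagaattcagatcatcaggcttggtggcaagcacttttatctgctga
Kcnf1 upstream: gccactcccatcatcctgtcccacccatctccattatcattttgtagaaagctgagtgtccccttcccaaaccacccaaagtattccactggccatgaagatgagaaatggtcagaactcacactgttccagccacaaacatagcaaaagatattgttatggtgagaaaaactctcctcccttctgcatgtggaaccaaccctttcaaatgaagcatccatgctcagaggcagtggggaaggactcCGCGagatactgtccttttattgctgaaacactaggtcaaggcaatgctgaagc
Kcnv2 exon: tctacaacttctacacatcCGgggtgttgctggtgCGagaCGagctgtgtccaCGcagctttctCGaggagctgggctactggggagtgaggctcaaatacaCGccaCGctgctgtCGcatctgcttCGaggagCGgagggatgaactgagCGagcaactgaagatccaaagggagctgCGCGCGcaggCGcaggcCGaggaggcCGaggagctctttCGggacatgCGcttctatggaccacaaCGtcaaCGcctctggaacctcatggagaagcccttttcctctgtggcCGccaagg
Kcnj16 promoter: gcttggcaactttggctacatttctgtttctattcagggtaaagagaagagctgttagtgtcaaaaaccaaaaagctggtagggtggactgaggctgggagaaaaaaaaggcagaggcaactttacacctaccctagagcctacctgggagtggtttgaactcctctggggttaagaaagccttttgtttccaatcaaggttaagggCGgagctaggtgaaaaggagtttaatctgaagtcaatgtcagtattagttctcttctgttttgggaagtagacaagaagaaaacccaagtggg
Kcnab1 promoter: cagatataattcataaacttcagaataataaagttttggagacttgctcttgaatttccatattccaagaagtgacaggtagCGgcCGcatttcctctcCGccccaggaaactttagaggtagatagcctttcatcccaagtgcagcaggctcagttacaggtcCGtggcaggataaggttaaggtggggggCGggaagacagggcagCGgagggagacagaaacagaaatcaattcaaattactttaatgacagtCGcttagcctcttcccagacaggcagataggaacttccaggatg
The Kcna3 and Kcnf1 windows hold 2 CpG each and the Kcnj16 promoter 1, while the Kcnab1 promoter holds 7 and the Kcnv2 window 22. RefSeq promoter windows were matched for 72 of the 98 genes, with a median of 9 CpG, against 7 over all 32851 promoters in the set. A set of 3 short motifs was searched on both strands of the central 300 bases of every region: the octamer ATGCAAAT, an Esrrb-type site TCAAGGTCA and an Otx2-type site TAATCC, none of which contains another. The octamer was in 1.41% of potassium channel regions, against 2.18% of all regions, the Esrrb-type site in 1.06%, against 1.03%, and the Otx2-type site in 10.1%, against 11.0%. None of the 3 was found in the 5 windows printed.

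Formative and naive wild-type cells were compared first, which asks where the mark was gained or lost as cells left the naive state. By the deposited FDR under 0.05, 115 of the 849 regions rose and 80 fell, that is 13.5% and 9.42%, where 8.13% of all regions within 100 kb rose and 10.9% fell. The rises were spread over 50 genes and the falls over 31. At a difference of at least 2-fold, 126 regions were higher and 86 lower, against a background of 8.69% and 11.5%. The median difference was 0.15 over the 849 regions and -0.07 over the background. Among regions with an average of at least 32 reads in the 2 groups, 73 of 492 rose and 60 fell, 14.8% and 12.2%, against 9.35% and 13.9% of such regions in the background.

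The families differed in their counts. Over the background, 8.13% of regions rose and 10.9% fell. Voltage-gated genes had 53 regions that rose and 15 that fell (24.5% and 6.94%), and auxiliary genes had 25 and 8 (16.7% and 5.33%). Silent modifiers had 6 that rose and 24 that fell (5.08% and 20.3%). Leak channels had 16 that rose and 12 that fell (13.4% and 10.1%). Inward rectifiers had 10 and 13 (7.75% and 10.1%), near the background. Calcium- or sodium-activated channels had 4 and 5 (5.06% and 6.33%), and the non-coding names 1 and 3 (2.63% and 7.89%). Split further by name, the 8 Kcna genes had 24 of 59 regions that rose and 0 that fell, and the 5 Kcnq genes 17 of 51 that rose and 3 that fell. The 4 Kcng genes had 2 of 59 that rose and 15 that fell, and Kcnf1 had 0 and 5 of 13. Neither family was uniform. Among silent modifiers, the 2 Kcnv genes had 3 of 10 that rose and 0 that fell, and the 3 Kcns genes 1 of 36 and 4. Among voltage-gated genes, Kcnb had 0 of 17 that rose and 5 that fell, and Kcnd 2 of 16 and 4. Kcnc had 5 of 40 that rose and 0 that fell, and Kcnh 5 of 33 and 3. Kcna2, Kcna3 and Kcna10 are neighbours on chromosome 3, and Kcna1, Kcna5 and Kcna6 on chromosome 6, so the Kcna regions come from few places. The difference between families was not tested.

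**Figure D1:**
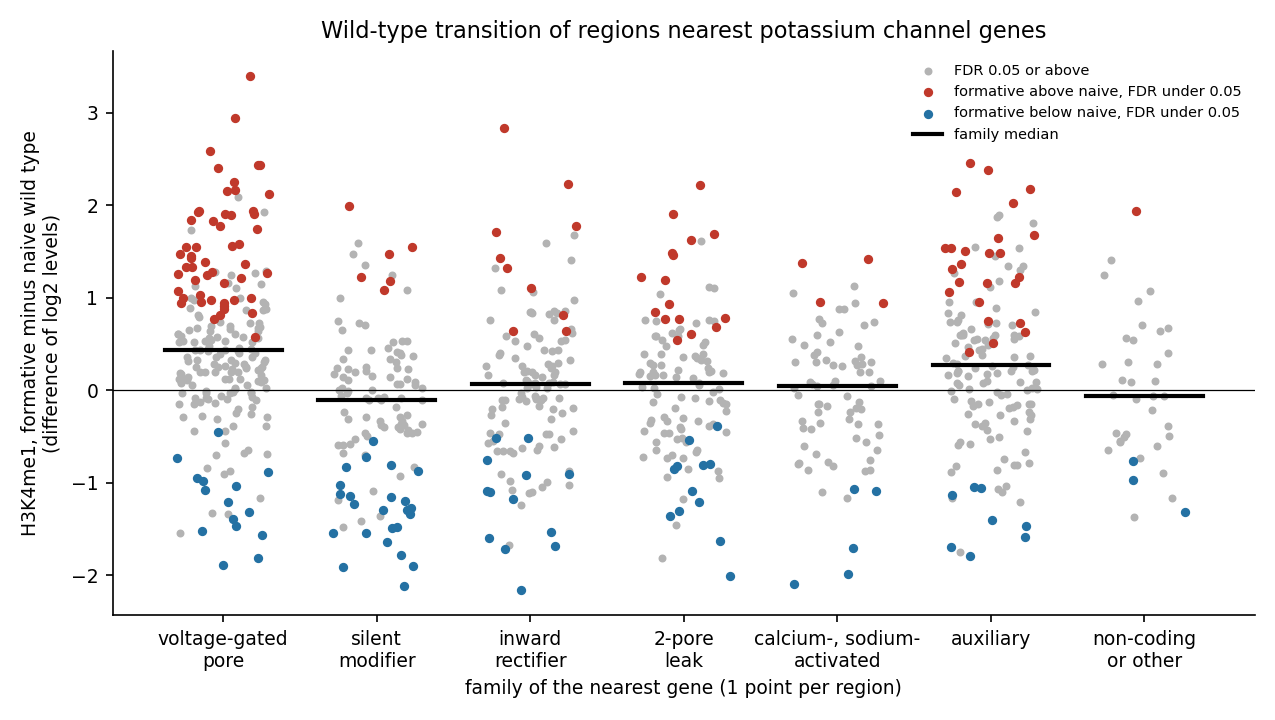
Difference of log2 H3K4me1 levels, formative minus naive wild type (vertical axis), for each of the 849 regions by family of the nearest gene; red points rose and blue points fell by the deposited FDR under 0.05, grey points did not pass it, and black lines are family medians. The voltage-gated median is 0.43 and the silent modifier median -0.11.

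Over whole genes with 3 or more regions, 20 of 84 had a mean difference of at least 1.5-fold upward and 5 downward, that is 23.8% and 5.95%, against 10.6% and 14.3% of all such genes. Kcna4, a pore subunit of fast-inactivating A-type channels, had the highest mean, 1.99 over 6 regions, of which 3 passed the FDR. Its regions held 258.8 reads in formative and 92.2 in naive wild-type cells. Kcna3, the pore of the main voltage-gated channel of T cells, had a mean of 1.48 over 13 regions, of which 9 rose and 0 fell by the FDR. Its summed reads were 757 in formative and 278 in naive wild-type cells. Kcnq3, a pore subunit of the M-current that quiets neurons, had a mean of 1.28, and all 20 of its regions lay above 0, between 0.59 and 2.25. Of these, 11 rose by the FDR, and the summed reads were 927 in formative and 401 in naive wild-type cells. Kcnmb2, an auxiliary subunit of the large-conductance calcium-activated channel, had a mean of 1.22 over 15 regions, of which 7 rose and 0 fell.

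At the other end stood Kcnh3, a brain subunit of the ether-a-go-go group, with a mean of -0.88 over 9 regions. Kcnd3, the pore of transient outward current in heart and brain, had a mean of -0.81 over 9 regions, and its summed reads were 299 in formative and 504 in naive wild-type cells. Kcnj12, a strong inward rectifier, had a mean of -0.64 over 17 regions, of which 5 fell. Kcne2, an auxiliary subunit, had a mean of -0.61, and Kcnf1, a silent subunit, -0.60 with 5 of 13 regions that fell. Kcng1, the silent modifier with the most regions, had 7 of 22 that fell and 0 that rose. Kcnj6, a G-protein-gated inward rectifier and the gene with the most regions, had 6 of 34 that fell and 1 that rose.

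Among regions with at least 32 reads in the higher group, the highest gain was at an intergenic region 71.4 kb upstream of Kcna3 (chr3:106963484-106966017), inside the annotated body of Gm27008. It held 106 reads in formative and 12.7 in naive wild-type cells, a difference of 2.94 (FDR 8.1e-13 in the authors' deposited table). In the floxed line it held 109.9 in formative and 20.0 in naive cells. In DKO it held 8.5 in formative and 8.99 in naive cells, and in dCD 22.7 in formative and 19.4 in naive cells. The gain was thus seen in wild-type and floxed cells, and the values of the 2 states lay close together in DKO and dCD. A second region 80.6 kb upstream of Kcna3 (chr3:106954401-106956685) held 104 reads in formative and 18.3 in naive wild-type cells (FDR 9.1e-10 in the authors' deposited table). It held 23.4 in formative and 16.8 in naive DKO cells. Also within Gm27008, a region 22.5 kb upstream of Kcna2 (chr3:107078214-107079969) held 47.0 reads in formative and 8.22 in naive wild-type cells (FDR 2.2e-05 in the authors' deposited table), and 11.2 in formative and 14.3 in naive DKO cells. An intron of Gm31641, 36.0 kb upstream of the inward rectifier gene Kcnj15 (chr16:95220658-95222412), held 61.2 reads in formative and 8.06 in naive wild-type cells (FDR 1.2e-07 in the authors' deposited table). That one differed less in the floxed line, with 29.7 reads in formative and 14.2 in naive cells.

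The largest falls by the same rule were at 2 regions of Kcnf1, 1 of Kcnn3 and 1 of Kcnh3. The region 24.0 kb downstream of the Kcnf1 start (chr12:17151807-17153900) held 11.8 reads in formative and 54.2 in naive wild-type cells. It held 29.3 in formative and 30.0 in naive DKO cells. The floxed line fell less than wild type there, with 24.1 in formative and 39.4 in naive cells, a difference of -0.69. The region 18.8 kb upstream of Kcnf1 (chr12:17194746-17196709) held 12.7 reads in formative and 49.9 in naive wild-type cells, and 13.9 in formative and 45.0 in naive floxed cells. There the DKO held 13.2 in formative and 9.95 in naive cells, and dCD 12.9 in formative and 11.5 in naive cells. The signal of naive cells at this region was therefore high in wild-type and floxed cells and low in both mutants. The region 4.7 kb upstream of Kcnn3, a small-conductance calcium-activated channel, held 8.82 reads in formative and 35.6 in naive wild-type cells. In the floxed line it held 16.2 in formative and 24.1 in naive cells, a difference of -0.57. The region 38.1 kb upstream of Kcnh3 lies in Spats2 and held 9.20 reads in formative and 35.3 in naive wild-type cells. In the floxed line it held 12.7 in formative and 20.3 in naive cells, a difference of -0.66.

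The same transition in the other genotypes used other libraries. In the floxed line, 94 of the 849 regions exceeded 2-fold upward in formative relative to naive cells and 68 downward, against a background of 7.53% and 10.6%. In DKO, 9 were higher and 10 lower, against 0.802% and 1.10%. In dCD, 14 were higher and 22 lower, against 1.15% and 2.22%. No gene mean reached 1.5-fold in DKO, where 0.54% of all genes did so upward and 0.255% downward. In dCD only that of Kcnj10, an inward rectifier of glia and kidney, did, at 0.64, where 0.857% of all genes did so upward and 0.975% downward. In the floxed line 12 of the 84 genes reached it upward and 4 downward, against 8.26% and 14.3% of all genes.

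The 115 regions that rose in wild type had a median difference of 0.13 in DKO, 0.89 in the floxed line and 0.28 in dCD. At 2-fold, 6 were higher in DKO, 49 in the floxed line and 6 in dCD, that is 5.22%, 42.6% and 5.22%. All regions of the background that rose in wild type, 12750 of them, had medians of 0.14 in DKO, 0.93 in the floxed line and 0.27 in dCD, with 2.42%, 46.0% and 4.59% at least 2-fold higher. The 80 regions that fell in wild type had medians of -0.17 in DKO, -0.92 in the floxed line and -0.41 in dCD, with 2, 32 and 5 at least 2-fold lower (2.50%, 40.0% and 6.25%). The background of 17117 such regions had medians of -0.14, -0.99 and -0.33 in the same order, with 1.65%, 49.2% and 5.30% at least 2-fold lower. The medians of the potassium channel regions thus lay close to the rest of the table, while the share higher in DKO, from 6 regions, was above it. The wild-type values chose these regions, so only the other genotypes are a comparison.

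**Figure D2:**
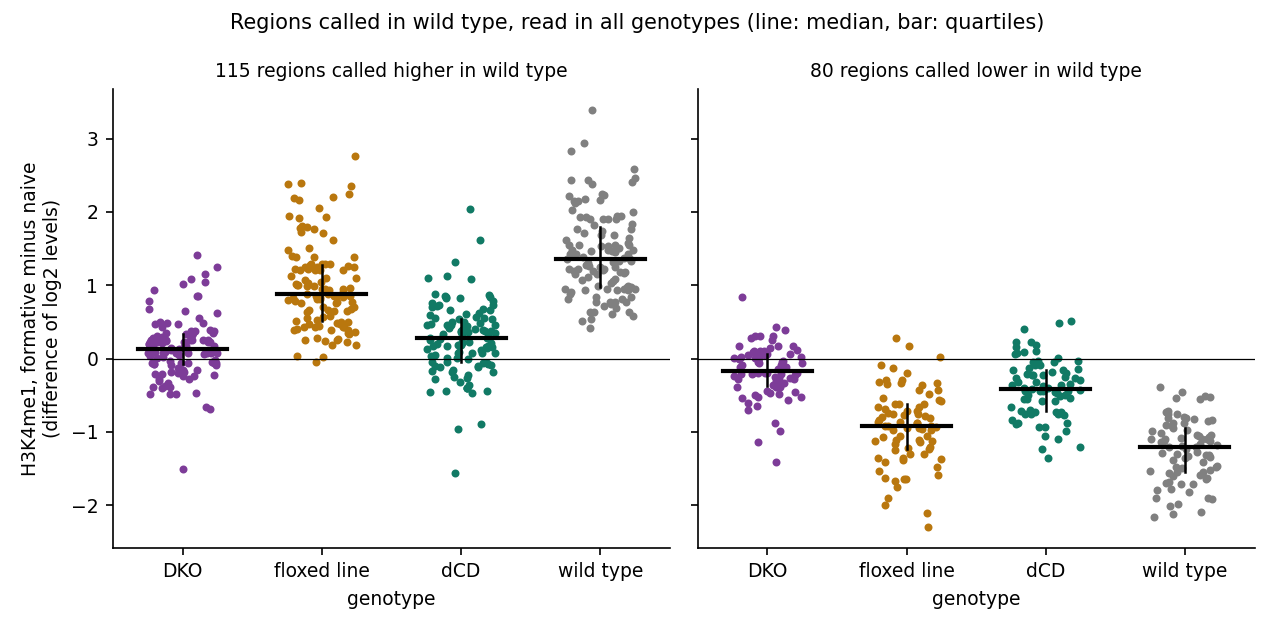
Difference of log2 H3K4me1 levels, formative minus naive, in DKO, floxed, dCD and wild-type cells for the 115 regions that rose (left) and the 80 that fell (right) in wild type; each point is a region, lines are medians and vertical bars quartiles. Medians for the rises are 0.13 in DKO, 0.28 in dCD and 0.89 in the floxed line, and for the falls -0.17, -0.41 and -0.92 in the same order.

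Kcna3 and Kcnq3 show this along their length. The mean over the 13 Kcna3 regions was 0.32 in DKO, 1.14 in the floxed line, 0.42 in dCD and 1.48 in wild type. The mean over the 20 Kcnq3 regions was 0.12 in DKO, 1.27 in the floxed line, 0.17 in dCD and 1.28 in wild type. At least 2-fold higher Kcnq3 regions numbered 0 in DKO, 11 in the floxed line, 0 in dCD and 12 in wild type. Summed reads over Kcnq3 were 531 in formative and 422 in naive DKO cells, and 852 in formative and 359 in naive floxed cells. Some Kcna3 regions still differed between the states in the mutants, 3 of 13 by at least 2-fold in DKO and 3 in dCD.

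**Figure D3:**
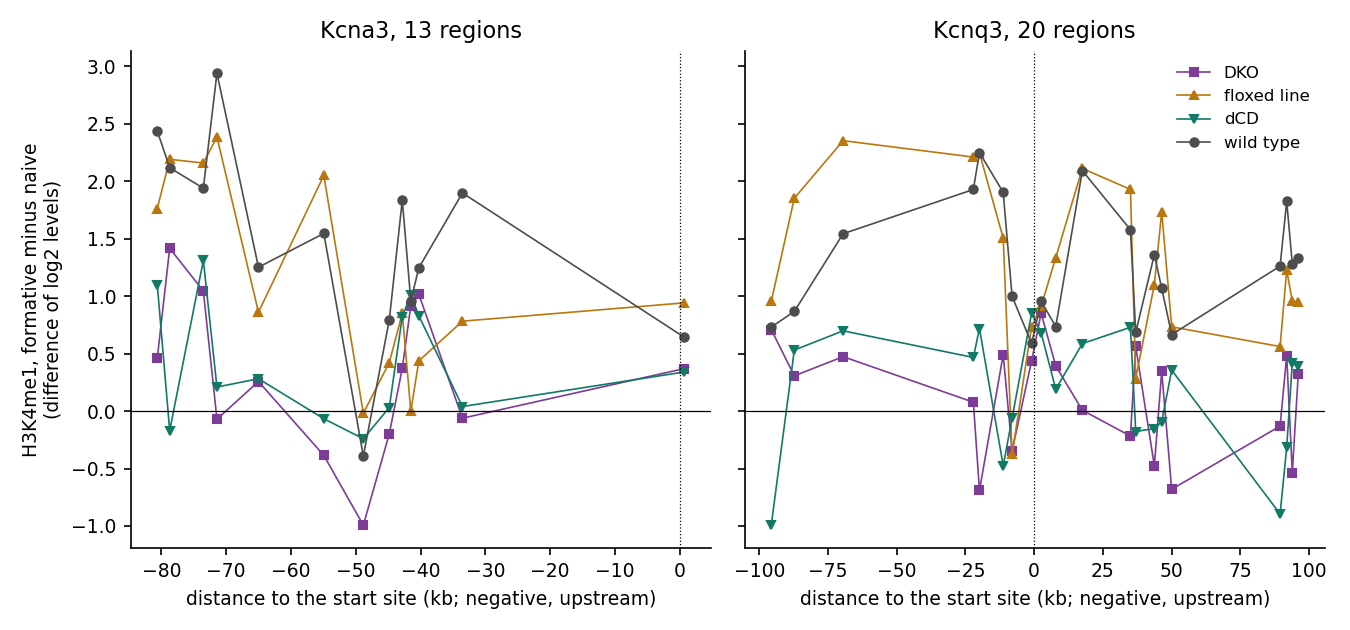
Difference of log2 H3K4me1 levels, formative minus naive (vertical axis), against the distance of each region to the start site in kb (horizontal axis) for Kcna3 (13 regions) and Kcnq3 (20 regions) in DKO, floxed, dCD and wild-type cells. Wild type and the floxed line run mostly above DKO and dCD, and the wild-type maximum at Kcna3, 2.94, is 71.4 kb upstream.

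DKO and floxed cells of the same state were compared next, which asks how the mark differs without MLL4 in cells that lack MLL3. In formative cells, 41 of the 849 regions were at least 2-fold higher in DKO and 159 lower, 4.83% and 18.7%, against a background of 6.56% and 13.8%. In naive cells, 52 were higher and 123 lower, 6.12% and 14.5%, against 4.06% and 14.2%. These counts depend on the scale: with each group centred on its median level, 68 were higher and 109 lower in formative cells and 89 higher and 84 lower in naive cells. The centred background was 11.5% higher and 9.22% lower in formative cells, against 8.01% and 12.8% here, and 7.79% and 9.06% in naive cells, against 10.5% and 9.89%. The median over all regions of the table was -0.13 in formative and -0.18 in naive cells as deposited, and 0.08 and 0.03 when centred. Of the 115 regions that rose in wild type, 51 were at least 2-fold lower in formative DKO than in floxed cells and 0 higher, with a median of -0.91, against -0.98 over the background. The share lower was 44.3%, against 48.8% over the background. Of the 80 that fell in wild type, 32 were lower in naive DKO and 0 higher, with a median of -0.71, against -0.60, and a share lower of 40.0%, against 27.8%.

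Kcnh8, an ether-a-go-go type pore subunit, was the lowest gene in both states. Its 4 regions held 42.3 reads in formative DKO and 197 in formative floxed cells, a mean difference of -2.14, and 40.3 in naive DKO and 182 in naive floxed cells, a mean of -1.88. All 4 regions were more than 2-fold lower in both states. The medians of all regions on chromosome 17 in the same comparisons were -0.36 and -0.50, below the -0.13 and -0.18 of the table. In formative cells Kcna3 followed at -1.53, with 11 of 13 regions at least 2-fold lower, then the silent subunit Kcnv1 at -1.41 and Kcna10, another Kcna pore subunit, at -0.97. In naive cells the next were Kcnk5, a leak channel sensitive to external pH, at -1.5, and the inward rectifiers Kcnj16 at -1.26 and Kcnj13 at -0.99. The 12 Kcnk5 regions held 981 reads in naive DKO and 2806 in naive floxed cells, with 11 at least 2-fold lower, on a chromosome 14 whose median was -0.48.

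Kcne4, an auxiliary subunit that inhibits Kcnq1 channels, was the highest gene in naive DKO, with a mean of 1.5 over 4 regions, and at 0.76 in formative DKO. At its region 76.1 kb upstream (chr1:78740335-78741222) naive DKO held 33.7 reads, naive floxed 7.41, naive dCD 26.4 and naive wild type 21.2. The low value there was that of the floxed line, since naive wild type lay nearer to the DKO. Its mean for naive floxed minus wild-type cells was -0.78. Kcnq5, another subunit of the M-current, averaged 1.23 in naive DKO over 3 regions, and Kcnu1, a sperm channel, and Kcnd3os averaged 0.61 and 0.60. For Kcnu1 the naive floxed line averaged -0.84 relative to wild type, on a chromosome 8 whose median in that comparison was -0.45. In formative DKO the highest were Kcnj15 at 0.81, Kcne4, Kcnmb4os2 at 0.52 and Kcnq1ot1 at 0.50. The Kcnj15 mean rested on 3 regions, and the 1 within 50 kb differed by -0.17.

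Single regions spread more widely. In formative cells the lowest differences besides the Kcna3 region at -3.51 were 36.8 kb downstream of the Kcnv1 start (chr15:45077536-45078822), with 4.36 reads in DKO and 32.6 in floxed cells, and 2 introns of Kcnh8. The Kcnh8 intron region 39.7 kb from the start held 13.1 reads in formative DKO and 82.8 in formative floxed cells, and the one 4.9 kb from it held 6.26 and 35.9. In naive cells the lowest was 40.3 kb upstream of Kcna3, with 6.10 reads in DKO and 35.9 in floxed cells, a difference of -2.49. Regions 31.2 kb and 9.9 kb upstream of Kcnk5 held 24.8 and 19.6 reads in naive DKO, against 133 and 104 in naive floxed cells. The Kcnh8 intron region 8.5 kb from the start held 18.1 in naive DKO and 93.1 in naive floxed cells. Each of these 8 regions, the Kcna3 region at -3.51 included, held at most 0.84 CpG per 100 bp.

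The highest single differences lay in regions with more CpG. In formative cells the exon region of Kcnv2, a silent subunit of the retina (chr19:27322367-27324446, 3.65 CpG per 100 bp), held 47.6 reads in DKO, 8.11 in floxed, 64.3 in dCD and 28.1 in wild-type cells. An intron region of Kcnip1 74.2 kb upstream of the nearest start held 32.8 reads in DKO and 10.7 in floxed cells, and 39.5 in dCD and 15.9 in wild-type cells. An intron region 23.3 kb into Kcnt1, a sodium-activated channel, held 51.4 in formative DKO and 18.4 in floxed cells, with 35.0 in wild type. The region 19.3 kb upstream of Kcng2 held 92.1 and 33.9, with 49.2 in wild type. At each of these formative regions, formative wild type lay above the floxed line. In naive cells, a region 2.0 kb upstream of Kcnk15 held 63.1 reads in DKO and 15.1 in floxed cells, with 27.4 in wild type. A region 60.1 kb downstream of the Kcnk1 start held 42.5 reads in naive DKO and 10.2 in floxed cells, with 29.4 in wild type, and a second Kcne4 region, 74.3 kb upstream, held 34.4 and 8.59, with 23.8 in wild type. At each of the 4 naive regions named as highest, with both Kcne4 regions among them, naive wild type lay above the floxed line.

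dCD and wild-type cells were compared in the same way, which asks how the mark differs when both enzymes were present but, by the label, catalytically dead. In formative cells, 24 of the 849 regions were at least 2-fold higher in dCD and 175 lower, 2.83% and 20.6%, against a background of 2.77% and 16.2%. In naive cells 19 were higher and 88 lower, 2.24% and 10.4%, against 1.38% and 12.3%. On levels centred on each group's median, 98 were higher and 89 lower in formative cells and 77 higher and 32 lower in naive cells, so which direction was more frequent depended on the scaling. The centred background turned too, with 11.7% higher and 7.0% lower in formative and 6.66% and 4.55% in naive cells, against 11.5% and 10.5%, and 9.07% and 3.77% here. The median over all regions of the table was -0.29 in both states as deposited, and 0.11 in formative and 0.07 in naive cells when centred.

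Kcnj3, a G-protein-gated inward rectifier, had the lowest gene mean in formative dCD, -1.66 over 10 regions. Its summed reads were 291 in formative dCD and 541 in formative wild-type cells. The formative floxed line also lay below wild type there, with 323 reads and a mean of -1.07, and formative DKO held 315 reads, a mean of -0.23 relative to the floxed line. Formative wild type stood apart from the other 3 genotypes at this gene. Kcnh8 was next at -1.58, with 61.7 reads in formative dCD and 201 in formative wild-type cells and all 4 regions lower, then Kcnv1 at -1.37 and Kcna3 at -1.22. In naive dCD the lowest were Kcnd3 at -1.07, the silent subunit Kcns2 at -0.90, Kcnh8 at -0.87 and Kcnj13 at -0.79. The 21 Kcns2 regions held 510 reads in naive dCD and 897 in naive wild-type cells, with 12 at least 2-fold lower and 0 higher. Naive dCD was highest at Kcnk2, a stretch-sensitive leak channel, at 0.75, then Kcnq5 at 0.69, Kcna4 at 0.58 and Kcnj15 at 0.46. Formative dCD was highest at the leak channels Kcnk18 (0.55) and Kcnk3 (0.41), Kcnt1 (0.40) and Kcnk2 (0.29). Gene means of at least 1.5-fold numbered 0 upward and 20 downward in formative dCD, against 2.63% and 17.6% of all genes, and 2 and 10 in naive dCD, against 0.938% and 15.0%. For DKO against floxed cells they numbered 2 and 16 in formative cells, against 7.63% and 13.7%, and 5 and 11 in naive cells, against 3.64% and 15.9%.

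Single regions gave further examples. In formative cells, the Kcnv1 region 36.8 kb from the start held 6.84 reads in dCD and 42.8 in wild type, and a region 21.4 kb upstream of Kcnj3 held 5.52 and 38.6. A Kcnip1 intron 23.4 kb from the start held 6.17 in formative dCD and 36.2 in formative wild-type cells, and a region 45.2 kb upstream of Kcns2 held 5.84 and 33.4. In naive cells, the promoter region of Kcnj16, whose window is printed above, held 8.75 reads in dCD and 40.8 in wild type, and 12.4 in DKO and 52.4 in the floxed line. A second Kcnj16 start site, with 5 CpG in its window, lay in a region of 28.3 reads in naive dCD and 75.3 in naive wild-type cells, and 27.5 in naive DKO and 97.7 in naive floxed cells. A region 7.4 kb upstream of Kcnd3 held 10.3 in naive dCD and 38.9 in naive wild-type cells, and a Kcnip4 intron region 15.6 kb upstream of the nearest start held 20.1 and 74.0. Higher in naive dCD were a promoter region of Kcnip4 (32.1 reads against 8.54 in wild type), a region 15.7 kb upstream of Kcna6 (44.7 against 17.6), an early intron of Kcnh1 (59.1 against 25.1) and an exon of Kcnd3 nearest Kcnd3os (85.3 against 38.7). Higher in formative dCD were an exon region of Kcnq1ot1 (85.7 reads against 29.9 in wild type) and early introns of Kcnk2 (51.3 against 19.9) and Kcnip1 (79.2 against 31.3). Without counts of strand, Kcnq1ot1 and Kcnq1, and Kcnd3os and Kcnd3, cannot be told apart here.

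**Figure D4:**
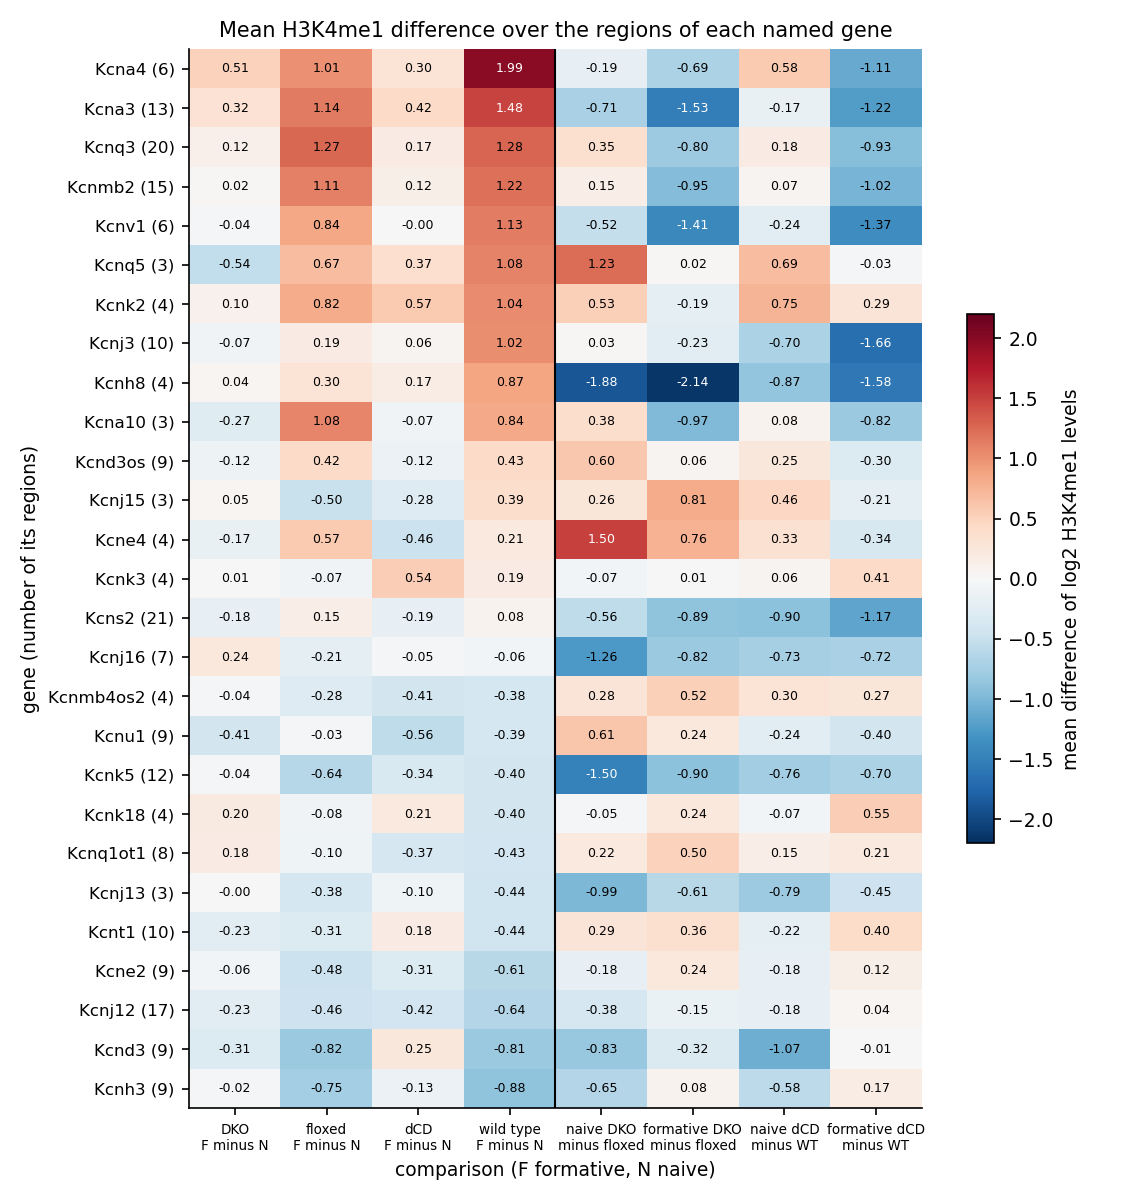
Mean difference of log2 H3K4me1 levels over the regions of each gene named by rank (rows, with the number of regions), for formative minus naive cells in 4 genotypes (left of the line) and mutant minus control cells in 2 states (right of the line). The 5 top rows, Kcna4 to Kcnv1, run between 1.13 and 1.99 in wild type and between -0.04 and 0.51 in DKO, and Kcnh8 is low in all 4 mutant columns.

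The DKO and dCD comparisons used separate controls. In formative cells both comparisons shared 105 regions that were at least 2-fold lower, 66.0% of the 159 of DKO and 60.0% of the 175 of dCD. Over the background these shares were 63.8% and 54.2%. In naive cells 62 were lower in both, 50.4% of the 123 of DKO and 70.5% of the 88 of dCD, against 46.6% and 53.8%. Higher in both were 7 regions in formative cells, 17.1% of those of DKO and 29.2% of those of dCD, against 15.6% and 37.1%, and 5 in naive cells, 9.62% and 26.3%, against 6.44% and 19.0%. The floxed line itself, set against wild type, was at least 2-fold higher at 5 regions and lower at 27 in formative cells, against 0.511% and 3.09%, and higher at 10 and lower at 33 in naive cells, against 0.682% and 3.89%. Gene means at least 1.5-fold lower were those of Kcnab1, Kcnj3 and Kcnq5 in formative floxed cells, with 0 higher, against 3.16% and 0.224% of all genes. In naive floxed cells those of Kcne4 and Kcnu1 were lower, against 3.99%, and that of Kcna4 was higher, against 0.534%.

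The mutant differences followed the CpG density of the regions. The 849 regions were split by CpG density into 3 sets of 283. In the set with the least CpG, up to 1.02 per 100 bp, the median for formative DKO minus floxed cells was -0.84, with 119 of 283 at least 2-fold lower and 4 higher. In the middle set it was -0.26, with 35 lower and 7 higher, and in the set with the most CpG 0.30, with 5 lower and 30 higher. Over background regions of the same 3 CpG ranges, 27.7%, 9.28% and 1.35% were lower and 3.28%, 4.94% and 12.8% higher, against 42.0%, 12.4% and 1.77% lower and 1.41%, 2.47% and 10.6% higher here. For formative dCD minus wild-type cells the medians were -0.94, -0.36 and 0.28, with 127, 40 and 8 regions lower (44.9%, 14.1% and 2.83%) and 2, 2 and 20 higher (0.707%, 0.707% and 7.07%). The background shares were 30.5%, 12.3% and 2.53% lower and 1.63%, 1.76% and 5.49% higher, so in the middle and highest sets the lower shares lay near the background. Centred on each group's median, the sets kept this order, at -0.64, -0.05 and 0.51 for DKO and -0.54, 0.04 and 0.68 for dCD. Across the 849 regions, Spearman's rho of CpG density with the formative difference was 0.61 for DKO and 0.64 for dCD, against 0.47 and 0.48 over the background. These correlations are across regions that share libraries, base composition and width, and carry no p-value. In wild type, 64 of the 115 regions that rose were in the set with the least CpG and 18 in that with the most, and of the 80 that fell 23 and 19 were. At 2-fold, 30.0%, 11.3% and 3.18% of the sets from least to most CpG were higher in formative wild type. The background ranges had the same order, at 16.0%, 6.09% and 2.40%. Lower were 8.83%, 12.7% and 8.83%, against 13.5%, 11.9% and 8.21%.

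**Figure D5:**
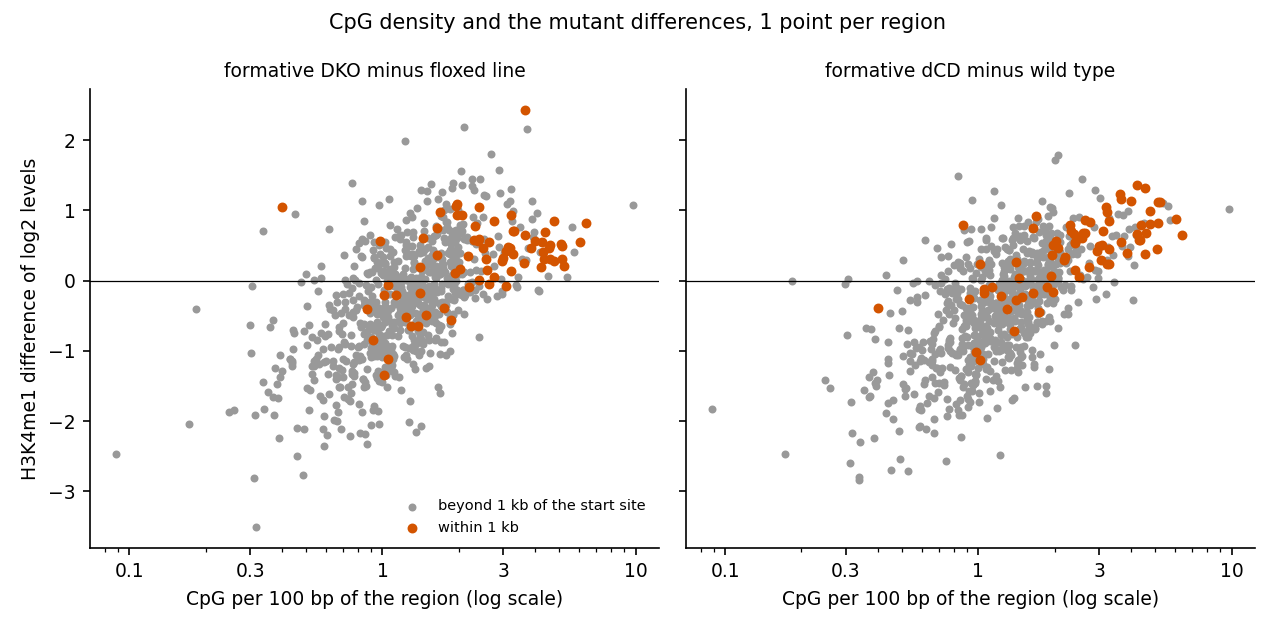
Difference of log2 H3K4me1 levels (vertical axis) against CpG per 100 bp (horizontal log axis) for formative DKO minus floxed cells (left) and formative dCD minus wild-type cells (right), 1 point per region, with regions within 1 kb of the start site in orange. Points rise from left to right in both panels, with Spearman's rho of 0.61 and 0.64 over 849 regions.

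Regions whose middle lay within 1 kb of a start site went with the CpG-rich end. Distance was counted from the middle of a region, so some broad regions that contain a start site fall outside this class. The 74 regions within 1 kb had medians of 0.40 for formative DKO minus floxed cells, 0.38 for naive DKO minus floxed cells, 0.51 for formative dCD minus wild type and 0.56 for naive dCD minus wild type. All 10671 background regions within 1 kb had nearly the same medians, 0.40, 0.38, 0.47 and 0.41 in that order. None of the 74 fell by the deposited FDR in the wild-type transition and 8 rose (10.8%), where 2.64% of the background start-site regions fell and 6.77% rose, and the median of that transition was 0.36, against 0.17. A total of 67 RefSeq promoter windows, of 62 genes, lay wholly inside a region. The Kcnab1 promoter printed above, of a beta subunit of voltage-gated channels, had the highest mean of the 4 mutant differences among them, 0.99, and the Kcnj16 promoter the lowest, -1.66. The Kcnab1 region held 36.3 reads in formative DKO and 17.5 in formative floxed cells, and 24.8 in naive DKO and 9.50 in naive floxed cells. Wild type held 34.3 in formative and 19.4 in naive cells, above the floxed line in both states and nearer to the DKO. The dCD line held 49.8 in formative and 39.7 in naive cells. Broader regions whose middle lay beyond 1 kb also held promoter windows, with means of the 4 mutant differences of both signs. Examples were -0.43 at Kcnk5, -0.08 at Kcnip2, 0.01 at Kcnj4 and 0.46 at Kcnk13. Given next are the regions within 1 kb with the most reads in their families. The broader Kcnk5, Kcnip2 and Kcnj4 regions held more, up to 1657, 565 and 406 reads. The Kcnip3 region held 383 reads in formative DKO, 258 in formative floxed, 396 in formative dCD and 244 in formative wild-type cells. The Kcnh2 region held 368, 389, 411 and 331 in the same order. The Kcnq1ot1 promoter held 75.4 reads in formative DKO and 37.2 in formative floxed cells, and 85.4 in formative dCD and 44.2 in formative wild-type cells. The others, of Kcnj5, Kcnk10, Kcnn1 and Kcng2, differed by -0.49 to 0.58 in the 4 mutant comparisons.

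The table also carries the authors' own fold changes of RNA and of H3K27ac, the acetyl mark of active enhancers, from libraries not analysed here. By the authors' deposited table, 38 of the 98 genes had an RNA fold, and in formative relative to naive wild-type cells 21 of the 38 were 2-fold or more higher and 3 lower. By the authors' deposited table, 19.1% of all genes with a fold were higher and 9.76% lower by that rule. Log2 RNA folds of formative over naive wild-type cells in the authors' deposited table were 4.91 for Kcnj3, 3.69 for the leak channel Kcnk1, 3.60 for Kcnq3 and 2.68 for Kcnmb2, and -2.64 for Kcns3, -1.71 for Kcnj12 and -1.28 for Kcnk5. Kcnq3, Kcnmb2 and Kcnj3 also had a mean H3K4me1 at least 1.5-fold higher, and Kcnj12 at least 1.5-fold lower. The silent subunits Kcng1 and Kcng2 differed in sign: their mean H3K4me1 differed by -0.51 and -0.57, and their log2 RNA folds in the authors' deposited table were 1.16 and 1.38. Over the 38 genes Pearson's r of the mean H3K4me1 difference with the RNA fold of the authors' deposited table was 0.53 and Spearman's rho 0.52, across genes of the same libraries and without a p-value.

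The RNA comparison of DKO is with wild type and that of H3K4me1 with the floxed line. For formative DKO relative to wild type, the authors' deposited table gave an RNA fold at least 2-fold lower for 9 of the 38 genes and higher for 1, where 5.65% of all genes were lower and 6.97% higher. The 9 in the authors' deposited table were Kcnc4 (-2.63), Kcnmb2 (-1.93), Kcnq3 (-1.60), Kcnj3 (-1.44), Kcnk1 (-1.29), Kcnh3 (-1.28), Kcna6 (-1.15), Kcnk6 (-1.12) and Kcns1 (-1.11). The 1 that was higher in the authors' deposited table was Kcnh8, at 1.33, the gene whose H3K4me1 was lowest in both DKO comparisons. In naive cells the authors' deposited table gave 8 lower, Kcnk5 among them at -1.94, and 1 higher, where 11.7% and 9.60% of all genes were. For the transition in DKO itself, the authors' deposited table gave 19 of the 38 as at least 2-fold higher in formative than in naive DKO cells and 2 lower, 50.0% and 5.26%, where 19.9% and 5.26% of all genes were, with a log2 fold of 3.54 for Kcnj3 and 1.86 for Kcnq3.

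For H3K27ac, the authors' deposited table gave the 115 regions that rose in H3K4me1 a median log2 fold of 0.43 in DKO and 1.27 in wild type for formative over naive cells, with 96 of the 115 (83.5%) above 0 in wild type. Over all background regions that rose, the medians in the authors' deposited table were 0.45 in DKO and 1.23 in wild type, with 81.0% above 0 in wild type. For formative DKO relative to wild type the median in the authors' deposited table was -0.83 over the 115 regions and -0.60 over the background. The 80 regions that fell in H3K4me1 had a median of 0.15 in wild type in the authors' deposited table, where the background of such regions had -0.28. Shifts the same way were seen over all 849 regions. Their wild-type median in the authors' deposited table was 0.65, against 0.30 over the whole background. For formative DKO relative to wild type it was -0.63, against -0.15.

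Other genes of potassium handling, which the name rule does not take, were listed for comparison: pacemaker channels, partners of channels, sodium pumps and potassium-chloride transporters, 30 in all, of which 23 had 3 or more regions. In wild type only Lrrc55, an auxiliary subunit of the large-conductance channel, had a mean at least 1.5-fold higher in formative cells. Lower were 0 of the 23, where 10.6% of all such genes were higher and 14.3% lower. In formative DKO relative to the floxed line, 1 of the 23, Dpp6, a partner of Kcnd pores, was at least 1.5-fold lower and 0 higher. The shares of all genes were 13.7% and 7.63%. In naive DKO, Dpp6 and Slc12a7 were lower and Abcc9 higher, against 15.9% and 3.64%. In formative dCD relative to wild type Dpp6, Lrrc52 and Lrrc55 were lower and 0 higher, against 17.6% and 2.63%. In naive dCD, Dpp6 and Slc12a7 were lower and 0 higher, against 15.0% and 0.938%.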

How the data were processed

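H3K4me1 was profiled by CUT&RUN in 16 libraries, 2 for each of 8 groups. Per the submitters' processing notes, Trim Galore, Bowtie2, SEACR, DiffBind and deepTools were used with mm10; no versions are given there. The authors deposited 1 table of regions with 1 log2 level per group, an FDR and p-value of formative against naive wild type, and log2 fold changes of RNA and H3K27ac. The deposited log2 level fits the form log2(1 + C × reads / width squared), with log2 C of 22.2 in both wild-type states and assumed equal in the other groups, and normalized reads were recovered from it. Levels were compared only within a region, where the 1 inside the logarithm makes differences smaller in wide regions. Normalized reads carry no interval, since the scaling, and any use of the yeast spike-in, is not given in the sources used here. As group values are pooled, no test per region was run, and the planned fit on library columns could not be made. A region was counted at 2-fold and a gene mean (3 or more regions) at 1.5-fold. Named were, for the wild-type transition and the 4 mutant comparisons, the 4 highest and 4 lowest regions with at least 32 reads in the higher group and the 4 highest and 4 lowest genes; per family the gene with the most regions and the start-site region with the most reads; and Kcnq1ot1. Kcnj10, Kcng1, Kcng2 and other genes in the RNA, overlap and promoter results were chosen after their values were seen. The members and lists were chosen with earlier results of these data known. CpG and motifs were counted on GRCm38. Alternatives were each group centred on its median, quantile scaling, a read minimum of 32, a limit of 50 kb, log2 ratios of reads plus 1, an FDR of 0.01 and, added after seeing the data, differences less the chromosome median. Counting was tested on simulated data only for planted changes larger than 2-fold in regions with at least 32 reads. Python 3.11.15, numpy 2.4.6, pandas 2.3.3 and matplotlib 3.10.9 were used. MLL4 and IgG libraries and 14 other per-group columns were not used here.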

Additional observations from a re-analysis of the deposited data

Results flagged for a closer look

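A few regions differed by at least 2-fold in opposite directions in the 2 states or in 2 genotypes; each rests on pooled values, and the difference was not tested in any of them. In DKO relative to the floxed line, 3 Kcnmb2 regions were higher in naive and lower in formative cells: 28.1 kb upstream the differences were -1.14 in formative and 1.10 in naive cells, 3.5 kb upstream -1.29 and 1.10, and 34.8 kb downstream of the start -1.87 and 1.28. At the first of these the reads were 22.7 in formative DKO and 50.8 in formative floxed cells, and 20.4 in naive DKO and 9.21 in naive floxed cells. The same pattern held 20.4 kb upstream of Kcna2, with -1.25 in formative and 1.12 in naive cells, and 57.7 kb upstream of Kcnq5, with -1.19 and 1.53, where no group held more than 6.40 reads. The Kcnq5 region also differed between the transitions, -1.50 in DKO and 1.22 in the floxed line. A Kcna1 region 28.1 kb upstream gave -1.03 in DKO, with 7.59 reads in formative and 15.7 in naive cells, and 1.34 in the floxed line, with 35.1 in formative and 13.7 in naive cells.

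In dCD relative to wild type, 3 regions were lower in formative and higher in naive cells: 11.2 kb upstream of Kcnq3 with -1.13 and 1.25, 36.0 kb upstream of Kcnj15 with -1.41 and 1.06, and 36.5 kb downstream of the Kcna1 start with -1.26 and 1.37. The transition itself differed between dCD and wild type at 2 regions. In a Kcnip1 intron 23.4 kb from the start it was -1.57 in dCD and 1.54 in wild type, with 6.17 reads in formative and 19.0 in naive dCD cells. A region 56.9 kb from the Kcnc4 start gave -1.03 in dCD and 1.14 in wild type.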

How the results depend on the processing

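No paired analysis was possible because each group has 1 pooled column, and for the same reason no library could be left out. Log2 ratios of reads and the limit of 50 kb moved none of the counts by over 1.5 times, and under the 50 kb limit the formative DKO minus floxed mean of Kcnj15 reversed to -0.17 from a single region. Centring moved the shares at least 2-fold higher to 10.5% in naive DKO, 8.01% in formative DKO, 9.07% in naive dCD, 11.5% in formative dCD, 1.88% in naive floxed and 1.30% in formative floxed cells relative to their controls, and the shares lower to 3.77% in naive dCD, 10.5% in formative dCD and 1.77% in formative floxed cells. Quantile scaling gave 10.5% higher in naive DKO, 12.4% lower in formative DKO, 9.89% higher and 5.30% lower in naive dCD, 8.48% and 10.6% in formative dCD, 2.47% higher in naive floxed, and 0.942% and 2.00% in formative floxed cells. Less the chromosome median, chosen after seeing the data, naive DKO gave 9.31% higher and 9.54% lower, naive dCD 6.71% and 5.54%, formative dCD 7.77% and 13.0%, and formative floxed 1.06% higher. With at least 32 reads on average, formative wild-type cells were 2-fold higher than naive at 8.74% of regions, against 5.60% of such background regions. In the same cells 8.54% were 2-fold lower, against 8.89%. The floxed line gave 7.25% higher. DKO gave 0.245% higher and 0.490% lower and dCD 0.959% and 1.2%. The same minimum gave 3.15% higher in naive DKO, 3.19% in formative DKO and 1.31% in naive dCD, 0% higher and 1.08% lower in naive floxed and 1.04% lower in formative floxed cells. At an FDR of 0.01, 6.71% rose and 4.95% fell in wild type. The causes were not tested. For dCD in both states and naive DKO the more frequent direction of the counts turned under centring. Regions under 32 reads gave larger shares past 2-fold: 23.2% of such potassium channel regions were higher in formative wild type, against 13.6% of the background.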
